A study of Cucumis melo with 62 samples.

Results

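CmACO1 (MELO3C014437.2) and CmNAC-NOR (MELO3C016540.2) are a pair of fruit ripening genes of melon, Cucumis melo. They were chosen by name and gene ID, not by a rule on their measured values, though with earlier results of these data known. They make up 2 of the 29980 gene IDs measured. Both were present in each deposited table and both passed the filter on low values in each. The deposited tables hold IDs only, so the gene names rest on the naming of these IDs as CmACO1 and CmNAC-NOR and not on an annotation in the files.

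Melon fruit of the climacteric kind ripens with a burst of the gas ethylene, which is made from the amino acid derivative ACC. ACC oxidase carries out the last step of ethylene synthesis, and CmACO1 is the ripening form of this enzyme in melon. Lowering its activity by antisense RNA is known to delay rind yellowing, aroma formation and the detachment of the fruit from the vine. CmNAC-NOR is a transcription factor of the NAC family, related to the tomato gene NOR (non-ripening), and is known as a regulator of when and how melon fruit ripens.

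Transcript levels were measured by sequencing of fruit RNA in 62 libraries of 10 cultivars, in mature fruit harvested at about 45 days after flowering. All plants are labelled wild type, and no treatment is named. TTDV and F39 were both grown at Georgia, North Carolina, Uvalde (Texas), Arizona and California in 2019 and at Uvalde in 2018, and TTDV also in Indiana in 2019, where the labels add TX in brackets. The cultivars CRUSER, PRIMO, Infinite Gold, TH-6, OC164, TH-5, HD150 and HD252 were grown at Weslaco, Texas, in 2019. Each of the 21 groups had 3 libraries except TTDV at Georgia, which had 2. No label tells if the libraries of 1 group were made from different fruits or plants. The p-values therefore measure only the spread between these libraries, which may be technical. The labels give no part of the fruit, and no tissue marker could be looked up because the IDs are not paired with product names.

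Levels are given as normalised reads, that is, whole reads recovered from the deposited variance-stabilised values and divided by the library's size factor. They compare 1 gene between libraries, and the genes are not compared with each other because no transcript lengths were matched. Libraries held 4041908 to 31333150 reads. In tissue RNA, fewer cells that express a gene and less RNA per cell cannot be told apart.

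Before the levels are read, several libraries need naming. At Uvalde 2019 the libraries did not carry the transcript pattern of their labelled cultivar. MELO3C016167.2, singled out after its values were seen, had 26.1 to 669 normalised reads in the 17 TTDV libraries outside Uvalde 2019 and 8046 to 31882 in 13 of the 15 F39 libraries there, but 7763 to 21356 in those labelled TTDV and 507 to 1078 in those labelled F39 at Uvalde 2019. The remaining F39 libraries, Georgia replicates 2 and 3, had 14497 to 16116. MELO3C024745.2, chosen in the same way, had 331 to 3156 normalised reads in those 17 TTDV libraries and 0.0 to 11.1 in the 13 F39 libraries, while F39 Georgia replicates 2 and 3 had 522 to 542. At Uvalde 2019 it had 0.0 to 5.07 in the libraries labelled TTDV and 676 to 926 in those labelled F39. TTDV North Carolina replicate 3 was most like F39 Uvalde 2019 replicate 3, and the reverse (r = 0.976 across genes). It is one of those 17 TTDV libraries, so both libraries lay on the TTDV side for MELO3C016167.2 and MELO3C024745.2. The labels were kept. Tests over several environments and descriptions of the whole TTDV and F39 table are given with and without libraries of this kind. At Weslaco, 18 of 24 libraries were most like a library of their own cultivar across genes. The others were TH-6 replicates 1 and 3, PRIMO replicate 3, CRUSER replicate 2 and OC164 replicates 2 and 3. OC164 replicate 2 was most like HD150 replicate 2 (r = 0.953), and OC164 replicate 3 most like HD150 replicate 1 (r = 0.936). The Weslaco labels were kept too.

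CmACO1 varied over a very wide range between fruit libraries, while CmNAC-NOR stayed within a narrow range. CmACO1 ran from 13.1 to 684466 normalised reads over the 62 libraries, a ratio of 52080, with a median of 9574. It took 0.000102% of the reads of the library where it was lowest and 3.45% where it was highest. Of the 62 libraries, 3 lay below 100 normalised reads, 3 between 100 and 1000, 26 between 1000 and 10000, 17 between 10000 and 100000 and 13 above that. CmNAC-NOR ran from 11585 to 50984 normalised reads, a ratio of 4.40, and all 62 libraries lay between 10000 and 100000.

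Among the 8 cultivars grown at Weslaco, CmACO1 was highest in CRUSER and lowest in HD252. CRUSER had 243471, 139416 and 205347 normalised reads in its 3 libraries. PRIMO had 28428, 16562 and 84643, all below each CRUSER library. Infinite Gold had 9306, 11274 and 46838 normalised reads, and TH-6 had 4978, 16152 and 46632. These 2 cultivars covered almost the same range. OC164 had 1260, 289 and 168996 normalised reads, so that replicate 3 lay within the CRUSER range and the other two far below it. TH-5 had 2244, 1734 and 1716, the tightest of the 21 groups by the ratio of highest to lowest (1.31). HD150 had 3660, 194 and 6457 normalised reads.

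HD252 had 13.1, 34.6 and 26.3 normalised reads of CmACO1. These values rest on 19, 54 and 26 recovered reads, with exact 95% Poisson intervals of 11.4 to 29.7, 40.6 to 70.5 and 17.0 to 38.1, which cover counting error only. Each HD252 library lay below each of the other 21 Weslaco libraries, an arrangement shown by 1.83% of the 17131 genes tested there. HD252 was not short of reads, with 12564637 to 21290476 per library. The 3 CRUSER libraries were the 3 shallowest at Weslaco (4041908 to 7806433 reads), and the part of depth in their high values was not tested.

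**Figure D1:**
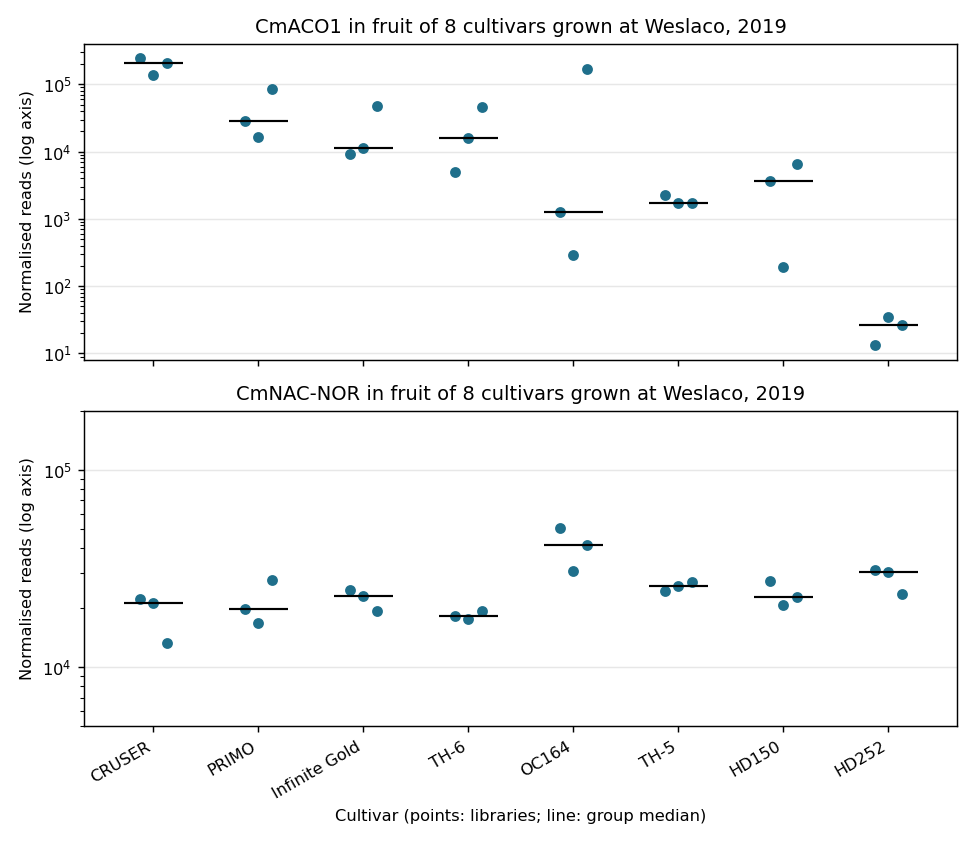
Normalised reads (log axis) of CmACO1 (upper panel) and CmNAC-NOR (lower panel) in each library of the 8 Weslaco cultivars, ordered by mean CmACO1 level; points are libraries and lines are group medians. CmACO1 falls from above 100000 in all 3 CRUSER libraries to below 100 in all 3 HD252 libraries, while CmNAC-NOR lies between 13234 and 50984 in every library.

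CmACO1 differed among the 8 cultivars in limma (moderated F test, adjusted p = 0.000588), as did 58% of the genes tested. Of the 28 pairs of cultivars, 9 passed the adjusted p threshold of 0.05 for CmACO1, and 6 of these 9 involved HD252 as the lower cultivar. Over the 28 pairs, 1.08 to 39.4% of genes were called, with a median of 10.7%. Differences here and in what follows are on the deposited log2-like scale, which shrinks differences at low read numbers. CRUSER exceeded HD252 by 11.77 ± 1.64 (SE, limma adjusted p = 4.31e-05, 39.4% of genes called), with mean normalised reads of 196078 ± 52643 in CRUSER and 24.7 ± 10.8 in HD252 (SD, n = 3 each). PRIMO exceeded HD252 by 9.29 ± 1.64 (limma adjusted p = 0.000312, 39.3% of genes called). Infinite Gold exceeded HD252 by 8.29 (adjusted p = 0.00167, 23.1% called) and TH-6 by 8.16 (adjusted p = 0.00223, 21.4% called). CRUSER also exceeded HD150 by 6.76 (adjusted p = 0.00561, 29.9% called) and TH-5 by 6.64 (adjusted p = 0.00744, 26.0% called). These 6 differences passed under each alternative tried, leaving out each library in turn included.

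The other 3 calls for CmACO1 depended on single libraries and on processing choices. OC164 exceeded HD252 by 6.25 ± 1.64 (limma adjusted p = 0.0343, 5.62% of genes called) and missed the threshold without OC164 replicate 1 or 3 or without HD252 replicate 1, 2 or 3 (adjusted p from 0.0504 to 0.127), with voom (0.0973) and with both groups fitted alone (0.202). CRUSER exceeded OC164 by 5.53 ± 1.64 (limma adjusted p = 0.0197, 26.4% called) and missed it without OC164 replicate 1 or 2 or CRUSER replicate 3 (adjusted p from 0.0518 to 0.112) and with both groups fitted alone (0.195). TH-5 exceeded HD252 by 5.14 ± 1.64 (limma adjusted p = 0.0439, 14.7% called). That call was lost without each of 13 libraries in turn, namely any TH-5 or HD252 library, TH-6 replicate 2, PRIMO replicates 1 and 2, CRUSER replicate 3, HD150 replicate 1 and Infinite Gold replicates 1 and 2 (adjusted p from 0.0502 to 0.116). It was also lost with no filter (0.0655) and with voom (0.104).

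HD150, the cultivar next above HD252, lay above it in each CmACO1 library, as did 14.2% of genes between these 2 cultivars. HD150 averaged 3437 ± 3138 normalised reads and HD252 24.7 ± 10.8 (SD, n = 3 each), a ratio of 139, and the difference of 5.02 ± 1.64 (SE) missed the threshold in limma (adjusted p = 0.0844, 5.91% of genes called). It passed without HD150 replicate 2 (adjusted p = 0.037), without OC164 replicate 2 (0.0457) and without OC164 replicate 3 (0.00788). It also passed with sample weights (0.00207), which called 3932 of 17131 genes for this pair, against 1013 without weights. In the order CRUSER, PRIMO, Infinite Gold, TH-6, OC164, TH-5, HD150 and HD252, none of the 7 neighbouring pairs passed for CmACO1 (limma adjusted p from 0.0844 to 0.996). The test resolved no neighbours in this order, although neither CRUSER and PRIMO (8.63% of genes higher in each CRUSER library) nor HD150 and HD252 overlapped. Without OC164 replicate 3, 15 of the 28 pairs passed. For HD150 over HD252, 1222 of 17090 genes were then called, against 1013 of 17131 in the main fit. The shares for the other pairs are not reported for that setting.

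CmNAC-NOR, measured in the same fruits, was highest in OC164 and did not follow the CmACO1 order. OC164 had 50984, 30838 and 41609 normalised reads. HD252 had 30903, 30204 and 23482, in the libraries where CmACO1 was lowest. TH-5 had 24312, 25789 and 27126 normalised reads, and HD150 had 27325, 20532 and 22619. Infinite Gold had 24593, 23011 and 19360, PRIMO 19624, 16793 and 27578, and CRUSER 22271, 21051 and 13234. TH-6 was lowest on average, with 18128, 17577 and 19250 normalised reads. Each cultivar overlapped with the next in this order.

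The F test among the 8 cultivars passed for CmNAC-NOR (limma adjusted p = 0.00977). Of the 28 pairs, 4 passed, each with OC164 as the higher cultivar. OC164 exceeded TH-6 by 1.14 ± 0.25 (SE, limma adjusted p = 0.00472, 15.5% of genes called), with mean normalised reads of 41144 ± 10081 in OC164 and 18319 ± 853 in TH-6 (SD, n = 3 each), a ratio of 2.25. It exceeded CRUSER by 1.13 ± 0.25 (limma adjusted p = 0.00239, 26.4% called), PRIMO by 0.95 ± 0.25 (0.00751, 27.9% called) and Infinite Gold by 0.86 ± 0.25 (0.0223, 17.2% called). The call against Infinite Gold was lost without OC164 replicate 1 or 3 or Infinite Gold replicate 2 or 3 (adjusted p from 0.0523 to 0.0968) and after quantile normalization (0.35). With the 2 groups of a pair fitted alone, 0 of the 28 pairs passed for CmNAC-NOR in limma, against 4 in the fit of all groups. Without OC164 replicate 2, 7 pairs passed. At unadjusted p under 0.05 the fit of all groups had 9 pairs. None of the 7 neighbouring pairs passed (adjusted p from 0.22 to 0.994).

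In TTDV and F39, both grown in 6 environments, CmACO1 was lower in every TTDV library than in any F39 library at Georgia and California, and the cultivars overlapped elsewhere. At Georgia, TTDV had 2057 and 1471 normalised reads, against 24226, 36330 and 684466 in F39. Across all genes the F39 library with 684466, replicate 3, was most like TTDV Indiana replicate 1 (r = 0.958). F39 Georgia replicates 1 and 2 were most like F39 libraries of Arizona and California. At California, TTDV had 4409, 2424 and 929, against 5695, 19211 and 115201 in F39. This arrangement was shown by 15.2% of genes at Georgia and 22.2% at California. At North Carolina, TTDV had 7442, 18273 and 104455 normalised reads, against 154569, 53949 and 179090 in F39. TTDV replicate 3 there lay within the F39 range. Across all genes it resembled F39 Uvalde 2019 replicate 3, a library that itself lay on the TTDV side for MELO3C016167.2 and MELO3C024745.2.

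At Arizona the levels ran the other way. TTDV had 8019, 104750 and 48171 normalised reads there, against 1947, 3915 and 8555 in F39, with an overlap of 1 library each. At Uvalde 2018, TTDV had 3818, 1675 and 9841, against 172906, 1824 and 1680 in F39. A single F39 library carried the higher F39 mean there. At Uvalde 2019 the libraries labelled TTDV had 159314, 10622 and 64745 normalised reads, and those labelled F39 had 1326, 1054 and 87268. The TTDV libraries of Indiana had 558298, 9209 and 11562, with no F39 beside them.

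**Figure D2:**
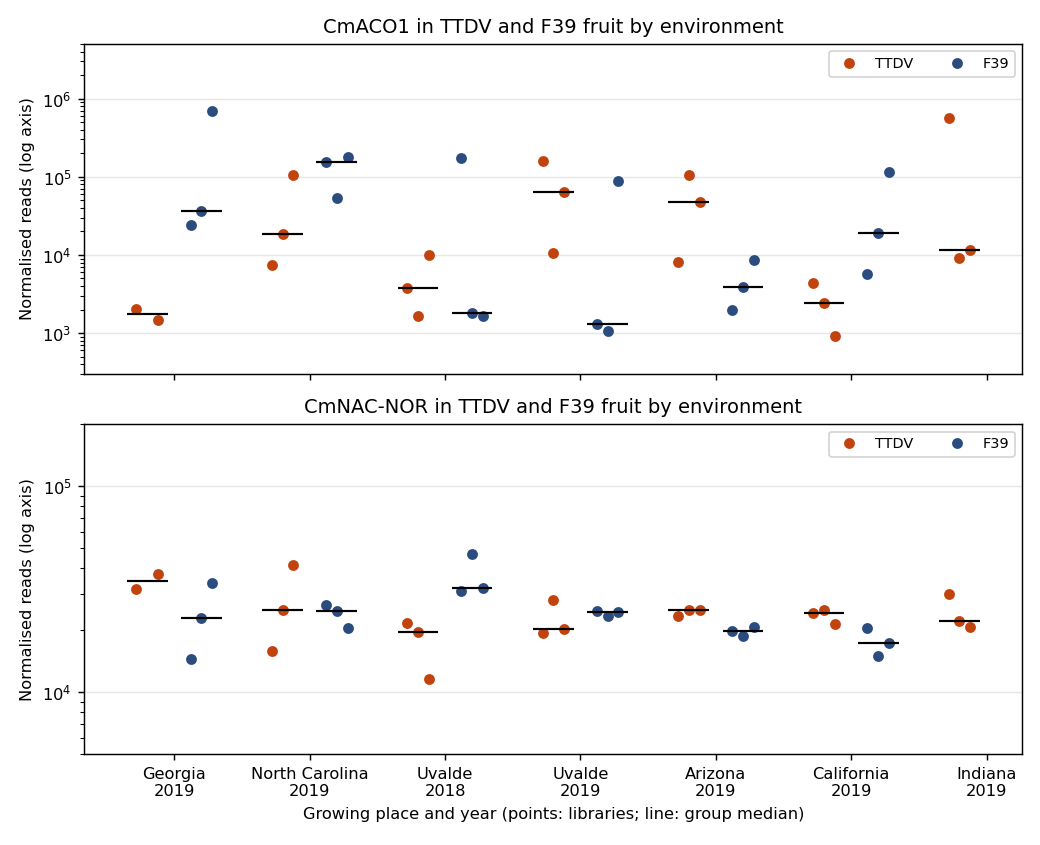
Normalised reads (log axis) of CmACO1 (upper panel) and CmNAC-NOR (lower panel) in TTDV and F39 libraries by growing place and year, labels as given; points are libraries and lines are group medians. CmACO1 spans 929 to 684466 normalised reads with single high libraries in several groups, while CmNAC-NOR stays between 11585 and 47051.

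No cultivar difference of CmACO1 within an environment passed the threshold in limma. TTDV minus F39 was -5.57 ± 1.96 (SE) at Georgia (limma adjusted p = 0.135, 2.26% of genes called), -3.41 ± 1.75 at California (adjusted p = 0.192, 16.8% called) and -2.24 ± 1.75 at North Carolina (adjusted p = 0.502, 4.07% called). It was 3.08 ± 1.75 at Arizona (adjusted p = 0.642, 1.28% called), 3.24 ± 1.75 at Uvalde 2019 as labelled (adjusted p = 0.316, 4.77% called) and -1.03 ± 1.75 at Uvalde 2018 (adjusted p = 0.723, 21.5% called). At Uvalde 2018 it ran from -2.16 without F39 replicate 3 to 1.17 without F39 replicate 1. At Uvalde 2019 the difference was 5.30 without F39 replicate 3 (adjusted p = 0.105) and 2.14 without F39 replicate 2 (0.565). At North Carolina it was -3.29 without TTDV replicate 3 (adjusted p = 0.497) and -1.39 without TTDV replicate 1 (0.698), and at California -2.26 without F39 replicate 3 (0.465). Leaving out F39 Georgia replicates 2 and 3 together gave -3.77 at Georgia (adjusted p = 0.529). Sample weights, which count less those libraries that deviate from their group, brought 5 of the 6 environments past the threshold, all except Uvalde 2018. The weights also raised the number of calls among all 17383 genes in these 5 environments. Genes called rose from 222 to 3773 (Arizona), 2920 to 8209 (California) and 830 to 1655 (Uvalde 2019). They rose from 707 to 4069 for North Carolina and from 393 to 811 for Georgia.

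Averaged over the 5 environments without Uvalde 2019, CmACO1 was lower in TTDV by a margin that missed the threshold, at -1.83 ± 0.80 (SE, limma adjusted p = 0.119, 17.6% of genes called). With Uvalde 2019 as labelled the mean difference was -0.99 ± 0.73 (adjusted p = 0.45, 9.33% called). Sample weights gave -0.49, and leaving out F39 Uvalde 2018 replicate 1 or F39 Uvalde 2019 replicate 3 gave -0.62 and -0.65. The test of whether the cultivar difference itself varied between the 6 environments passed for CmACO1 (limma F test, adjusted p = 0.0355, 29.4% of genes called). Over the 5 environments without Uvalde 2019 it did not pass (adjusted p = 0.103, 18.0% called). That test did pass without F39 Uvalde 2018 replicate 1 (0.046, 2690 of 17331 genes called) and after quantile normalization (0.038, 3515 of 17383 called). It also passed with sample weights (0.000172, 10265 of 17383 called) and with the compared groups fitted alone (0.0433, 4310 of 16776 called). The call over 6 environments was lost without each of 12 libraries in turn (adjusted p from 0.0522 to 0.0733), namely F39 Georgia replicate 3, TTDV Georgia replicates 1 and 2, F39 Uvalde 2019 replicates 1 and 2, TTDV Uvalde 2019 replicates 1 and 3, F39 Arizona replicates 1 and 2, TTDV Arizona replicates 2 and 3 and TTDV California replicate 3.

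CmNAC-NOR moved within a far smaller range in TTDV and F39. At Uvalde 2018, TTDV had 21770, 19664 and 11585 normalised reads, against 30944, 47051 and 32086 in F39, with no overlap. At Arizona, TTDV had 23337, 24948 and 25080, against 19783, 18798 and 20666 in F39. At California, TTDV had 24140, 25005 and 21502, against 20471, 14942 and 17298 in F39. So TTDV lay above F39 in each library at Arizona and California (arrangements shown by 13% and 23% of genes) and below it in each library at Uvalde 2018 (20.3%). At Georgia, TTDV had 31658 and 37356 normalised reads, against 14480, 22890 and 34066 in F39. At North Carolina, TTDV had 15821, 25012 and 41638, against 26621, 24794 and 20422 in F39. At Uvalde 2019 the libraries labelled TTDV had 19473, 27981 and 20324 and those labelled F39 had 24706, 23548 and 24456. In these 3 environments the cultivars overlapped. The Indiana libraries of TTDV had 30087, 22284 and 20636 normalised reads.

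The Uvalde 2018 difference of CmNAC-NOR passed the threshold, with TTDV lower than F39 and TTDV minus F39 at -1.08 ± 0.30 (SE, limma adjusted p = 0.0114) and mean normalised reads of 17673 ± 5377 in TTDV and 36694 ± 8988 in F39 (SD, n = 3 each). It was one of 21.5% of genes called there. The call was lost without F39 replicate 2 (-0.88, adjusted p = 0.072), without TTDV replicate 3 (-0.80, adjusted p = 0.0966), after quantile normalization (-0.65, adjusted p = 0.104) and with these 2 groups fitted alone (adjusted p = 0.0588). In the other 5 environments TTDV minus F39 lay between -0.12 and 0.62 and missed the threshold (limma adjusted p from 0.361 to 0.894). At Georgia the difference of 0.62 was 0.30 without F39 replicate 1 and 1.25 without F39 replicates 2 and 3. At North Carolina the difference of 0.10 turned to -0.26 without TTDV replicate 3 and to -0.01 without F39 replicate 3. The mean difference was 0.07 ± 0.14 over 5 environments (adjusted p = 0.77) and 0.04 ± 0.13 over 6 (adjusted p = 0.884).

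**Figure D3:**
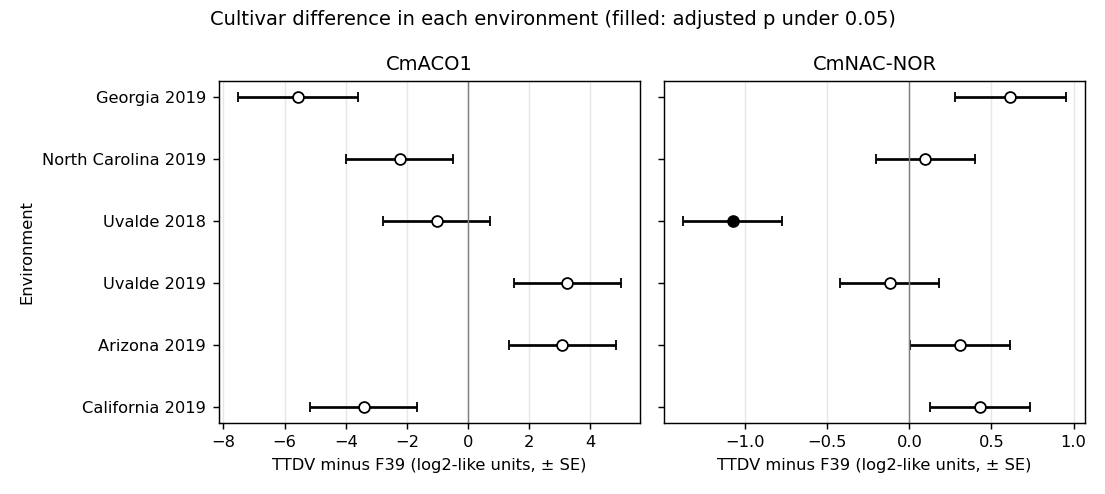
TTDV minus F39 in log2-like units (x axis, with different ranges in the 2 panels) in each shared environment (y axis) for CmACO1 and CmNAC-NOR; points are limma estimates, bars are ± SE, and a filled point has an adjusted p under 0.05. The filled point is CmNAC-NOR at Uvalde 2018, at -1.08, and the CmACO1 estimates run from -5.57 at Georgia to 3.24 at Uvalde 2019 as labelled.

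The cultivar difference of CmNAC-NOR varied between the 6 environments (limma F test, adjusted p = 0.0341, 29.4% of genes called) and between the 5 without Uvalde 2019 (adjusted p = 0.0322, 18.0% called). The call over 6 was lost without TTDV Georgia replicate 2 (adjusted p = 0.0611), F39 Uvalde 2018 replicate 2 (0.114), TTDV Uvalde 2018 replicate 3 (0.125) or F39 California replicate 2 (0.051). That over 5 was lost without the same 4 libraries (0.0505 to 0.131) and without F39 Uvalde 2018 replicate 3 (0.0502).

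Between growing places within a cultivar, neither gene passed the overall test. For CmACO1 the F test gave an adjusted p of 0.0783 over the 6 F39 environments (37.8% of genes called) and 0.0929 over the 7 TTDV environments (31.7% called) in limma. Mean deposited values of CmACO1 in F39 ran in the order North Carolina, Georgia, California, Uvalde 2018, Uvalde 2019 and Arizona. In TTDV the order was Uvalde 2019, Indiana, Arizona, North Carolina, Uvalde 2018, California and Georgia. Both orders follow the labels, which at Uvalde 2019 went against the transcript pattern of the libraries. Georgia thus stood last in TTDV and next to the top in F39, and Arizona stood last in F39. None of the 15 F39 pairs or the 21 TTDV pairs of environments passed for CmACO1 in limma, with 5 and 6 pairs at unadjusted p under 0.05. Of all genes, 1.03 to 26.3% were called in the F39 pairs (median 7.13%) and 0.0 to 25.2% in the TTDV pairs (median 5.09%). No pair of neighbours passed for CmACO1 (adjusted p from 0.348 to 1.0). Voom gave 0 pairs in each cultivar as well.

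Single libraries mattered here too. Without F39 Uvalde 2019 replicate 3, the F39 test passed for CmACO1 (adjusted p = 0.0162, 7271 of 17278 genes called) with 3 pairs. The TTDV test then passed as well (0.049, 6962 called), and 1 TTDV pair passed. Without F39 Uvalde 2018 replicate 1, the F39 test passed (0.0187, 5952 of 17331 genes called) with 3 pairs, and 1 TTDV pair passed. Leaving out TTDV Uvalde 2019 replicate 2 or TTDV Indiana replicate 1 brought 1 TTDV pair past the threshold in each case. Without the 6 Uvalde 2019 libraries, 1 of the remaining F39 pairs passed for CmACO1, and the F tests within F39 and within TTDV still missed the threshold.

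For CmNAC-NOR the F test gave an adjusted p of 0.0803 over the F39 environments and 0.275 over the TTDV environments in limma. Of the F39 pairs, 1 passed. F39 at Uvalde 2018 exceeded F39 at California by 1.05 ± 0.30 (SE, limma adjusted p = 0.0118, 24.2% of genes called), with 36694 ± 8988 normalised reads at Uvalde 2018 and 17570 ± 2774 at California (SD, n = 3 each). That call was lost without F39 Uvalde 2018 replicate 2 (adjusted p = 0.0776) or F39 California replicate 2 (0.0601). In F39 the order of CmNAC-NOR was Uvalde 2018, Uvalde 2019, North Carolina, Georgia, Arizona and California, and in TTDV it was Georgia, North Carolina, Arizona, Indiana, California, Uvalde 2019 and Uvalde 2018. Uvalde 2018 was the highest in F39 and the lowest in TTDV. These orders also follow the labels at Uvalde 2019. Without the 6 Uvalde 2019 libraries, both F tests of CmNAC-NOR still missed the threshold. No pair of neighbours passed in either cultivar (adjusted p from 0.164 to 1.0), and 0 of the 21 TTDV pairs passed in limma, with 1 at unadjusted p under 0.05 and 0 with voom. Of the TTDV pairs, 2 passed without TTDV North Carolina replicate 1 and 1 without TTDV North Carolina replicate 3 or TTDV Uvalde 2018 replicate 1. Of the F39 pairs, 2 passed without TTDV North Carolina replicate 3. The F39 test passed for CmNAC-NOR without F39 Georgia replicate 1 (adjusted p = 0.0432, 7048 of 17362 genes called) or 3 (0.0414, 6247 of 17355). It also passed without TTDV North Carolina replicate 1 (0.0486, 6765 of 17365) or 3 (0.0362, 7778 of 17213).

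Libraries of a group differed far more in CmACO1 than in CmNAC-NOR. The SD within groups was 2.30 log2-like units for CmACO1 in the TTDV and F39 table, larger than in 99.97% of the 17383 genes tested, and 2.09 at Weslaco, larger than in 99.73% of 17131. For CmNAC-NOR it was 0.35 and 0.27, at percentiles 30.76 and 20.45, against medians over all genes of 0.41 and 0.36. In 10 of the 21 groups the highest CmACO1 library exceeded the lowest at least 10-fold, up to 585-fold in OC164. CmNAC-NOR reached 2.63-fold within a group at most, in TTDV at North Carolina. Groups accounted for 51.2% of the CmACO1 variance in the TTDV and F39 table and 78.9% at Weslaco, against medians of 55% and 60.5% over all genes tested. For CmNAC-NOR these shares were 51.6% and 71.9%. Without the 9 libraries that stood apart (6 from Uvalde 2019, F39 Georgia replicates 2 and 3 and TTDV North Carolina replicate 3), the SD in the TTDV and F39 table was 2.09 for CmACO1 (percentile 99.98) and 0.27 for CmNAC-NOR (percentile 33.39), and the shares were 56% and 73.4% against a median of 66.7%. These percentages describe the libraries and were not tested.

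**Figure D4:**
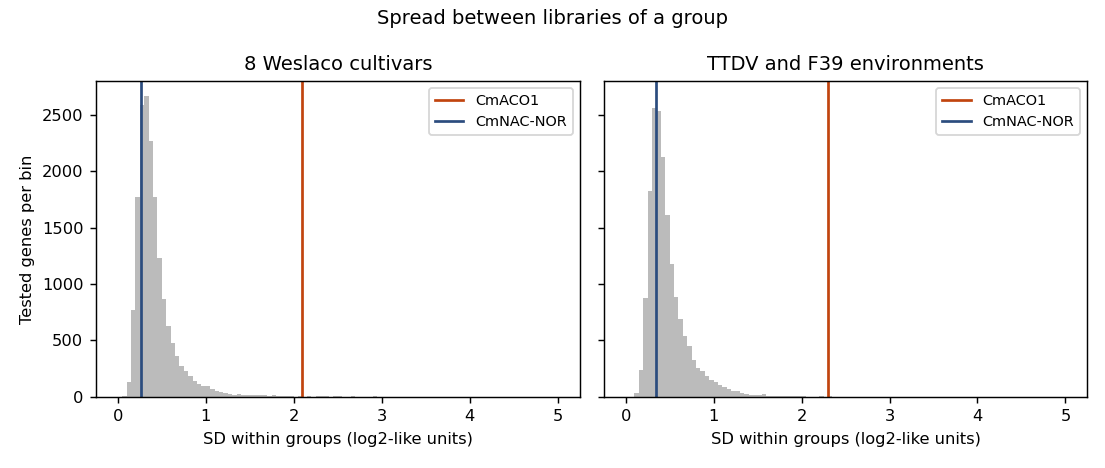
Number of tested genes (y axis) by their SD within groups in log2-like units (x axis) for the Weslaco table (left) and the TTDV and F39 table (right); the vertical lines mark CmACO1 and CmNAC-NOR. CmACO1 lies at 2.09 and 2.30 in the far right tail, and CmNAC-NOR at 0.27 and 0.35, below the medians of 0.36 and 0.41.

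The levels of the 2 genes showed little relation across the TTDV and F39 libraries and an inverse one across the Weslaco libraries. As a description, Pearson's r between their deposited values was 0.04 over the 38 TTDV and F39 libraries (Spearman's rho 0.03) and -0.36 over the 24 Weslaco libraries (rho -0.46). Without the 2 libraries farthest from the median CmACO1 value, r was -0.10 and -0.35. Over the 29 TTDV and F39 libraries left without the 9 that stood apart, r was -0.08 (rho -0.09). Over group means r was -0.17 (13 groups) and -0.56 (8 cultivars), while deviations from the group mean gave 0.19 and 0.25. Libraries of a group share cultivar, place and season, and both genes of a library share its depth, so the points are not independent and no test was made.

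**Figure D5:**
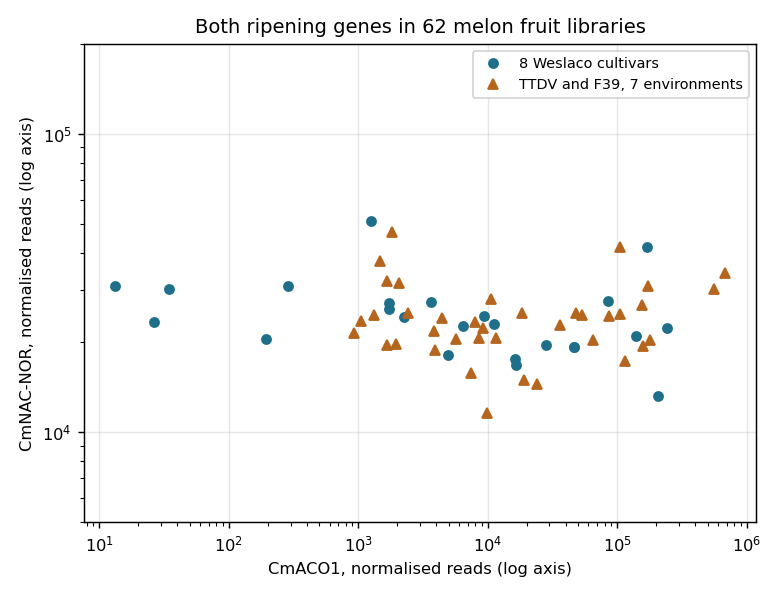
CmNAC-NOR (y axis) against CmACO1 (x axis) in normalised reads on log axes, 1 point per library; circles are the 24 Weslaco libraries and triangles the 38 TTDV and F39 libraries. The points spread along the CmACO1 axis from 13.1 to 684466 with CmNAC-NOR between 11585 and 50984 throughout.

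Several genes had a pattern across libraries like that of CmACO1. Among 16583 other genes tested in both tables, MELO3C010162.2 had the pattern most like CmACO1, with r = 0.914 over 38 libraries and 0.843 over 24. It had at least 2578 normalised reads in CRUSER and at most 44.8 in HD252. MELO3C017768.2 came next, with r = 0.832 in both tables, and had at least 12743 normalised reads in CRUSER and at most 5699 in HD252. Both genes were picked for their likeness to CmACO1 over these same libraries. Their high CRUSER and low HD252 levels therefore follow in part from that choice. In all, 9 genes had r of at least 0.8 with CmACO1 in both tables, and 0 had it with CmNAC-NOR. The genes most like CmNAC-NOR were MELO3C021897.2, with r = 0.690 and 0.704, and MELO3C018174.2, with r = 0.714 and 0.627. Over the 29 libraries, r with CmACO1 was 0.960 for MELO3C010162.2 and 0.834 for MELO3C017768.2, and r with CmNAC-NOR was 0.789 for MELO3C021897.2 and 0.720 for MELO3C018174.2. These correlations share libraries, cultivars and depth, and the IDs are not paired with names.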

How the data were processed

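The authors deposited log2-like variance-stabilised values (VST, per the labels' file descriptions) for 29980 gene IDs, in 1 table of 38 TTDV and F39 libraries and 1 of 24 Weslaco libraries. DESeq and DESeq2 are named, per the submitters' processing notes, without versions. Not given in the sources used here are the aligner, counting tool, strand setting, genome build and annotation. Both tables bottom out at 4.182278, the value of a gene with 0 reads. The transform was undone with the parametric form of its equation, which returned whole reads (at least 99.97% of values in each library within 0.05 of a whole number). Median-of-ratios size factors over all 62 libraries matched the scaling of the deposited values, whose spread around them was at most 1.54%, so normalised reads of both tables are on 1 scale. Tests were kept within tables. A doubling from 10 reads moves the deposited value by 0.40 and from 1000 reads by 0.97.

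Genes were tested where at least 3 libraries reached the lowest value plus 1 unit (9.37 normalised reads), 17383 and 17131 genes. limma 3.58.1 in R 4.3.3 was fitted to all genes of a table with 1 coefficient per group, trend and robust moderation, and Benjamini-Hochberg adjustment over all genes per comparison, threshold 0.05. The fit was also run on simulated counts with independent libraries and correct labels, which does not cover the libraries that stood apart. Groups follow the labels, and replicate numbers follow accession order. Alternatives were no filter, a stricter filter (3 units), quantile normalization, plain moderation, sample weights, voom with TMM on recovered reads, compared groups only, leaving out the Uvalde 2019 libraries, leaving out F39 Georgia replicates 2 and 3, and leaving out each library in turn. Descriptions without 9 libraries that stood apart were added after seeing the data. The members, comparisons and alternatives were chosen with earlier results of these data known. Genes named for likeness had the highest lower-of-both-tables Pearson r, 2 per gene. The RefSeq gene table (USDA_Cmelo_AY_1.0) matched 0 of the IDs, so no sequence, coordinate, ethylene pathway list or tissue marker is reported. Without a stated strand setting, reads of overlapping genes cannot be told apart.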

Additional observations from a re-analysis of the deposited data

Results flagged for a closer look

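The cultivar difference of CmACO1 (TTDV minus F39) differed between the 6 shared environments by the interaction test (limma F test, adjusted p = 0.0355, 29.4% of genes called), and this call was lost without each of 12 libraries in turn. Over the 5 environments without Uvalde 2019 it was not called (adjusted p = 0.103, 18.0% called). It ran from -5.57 at Georgia to 3.24 at Uvalde 2019 as labelled. The difference of CmNAC-NOR likewise differed between the 6 environments (adjusted p = 0.0341) and between the 5 without Uvalde 2019 (adjusted p = 0.0322), with -1.08 at Uvalde 2018 and 0.62 at Georgia as its ends. The Georgia value was 0.30 without F39 replicate 1, and the 2 calls were lost without 4 and 5 single libraries.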

How the results depend on the processing

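Among the 32 results, 236 of 274 values under the alternatives kept their direction and side of the threshold (counts of pairs: within 1.5 times), as did 1110 of 1160 values with 1 library left out. With no filter, the stricter filter, plain moderation or voom, all 32 did so, although among single cultivar pairs of CmACO1 that passed, TH-5 over HD252 was lost with no filter (0.0655) and voom (0.104), and OC164 over HD252 with voom (0.0973). The cause of the changes that follow was not tested. Counts of pairs under the alternatives are given without the share of all genes called in each pair. After quantile normalization, CmNAC-NOR had 8 Weslaco pairs past the threshold (OC164 over Infinite Gold not among them, 0.35), -0.65 at Uvalde 2018 (adjusted p = 0.104), 0.07 at Uvalde 2019 and interaction p-values of 0.084 over 6 and 0.074 over 5 environments. CmACO1 then had an interaction p of 0.038 over 5 environments. Its F test among F39 environments gave an adjusted p of 0.0238 with 3 pairs, and that among TTDV environments 0.0465 with 2 pairs. Of 17383 genes, 3515, 7001 and 5670 were called in these tests. With sample weights, TTDV minus F39 of CmACO1 was -1.71 over 5 environments (adjusted p = 0.0152), 3.87 at Arizona, -3.06 at California, -5.64 at Georgia, -3.00 at North Carolina and 5.58 at Uvalde 2019, each past the threshold. Over 5 environments 6481 of 17383 genes were called with weights, against 3068 without, and the single environments named also had more genes called. Its interaction p over 5 environments was 0.000172. The F test among F39 environments gave an adjusted p of 0.000108 with 5 pairs, and that among TTDV environments 0.000173 with 7 pairs. With weights these tests called 10265, 12261 and 12830 of 17383 genes, against 3137, 6567 and 5519 in the main fit. With weights CmNAC-NOR had 8 Weslaco pairs, -0.0445 at North Carolina and 0.60 at California (adjusted p = 0.00324, 8209 of 17383 genes called). Among F39 environments it had 0.000208 (12261 called) with 6 pairs, and 2 TTDV pairs passed. With the compared groups fitted alone, CmNAC-NOR had 0 Weslaco pairs and -1.08 at Uvalde 2018 (adjusted p = 0.0588). CmACO1 had -3.41 at California (adjusted p = 0.0407, 4444 of 14415 genes called) and an interaction p of 0.0433 over 5 environments (4310 of 16776 called). CmACO1 also had 1 F39 pair, and its F test among TTDV environments gave an adjusted p of 0.0492 (4300 of 16388 called) with 4 pairs. Without the 6 Uvalde 2019 libraries, CmACO1 had 1 F39 pair. The mean over 6 environments and the interaction over 6 have no value there. Without F39 Georgia replicates 2 and 3, the CmACO1 interaction over 6 environments had an adjusted p of 0.0784, CmNAC-NOR among F39 environments had 0.0245, and 1 TTDV pair passed for CmNAC-NOR.

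With each library left out in turn, the number of Weslaco pairs past the threshold ran from 7 to 15 for CmACO1 and from 3 to 7 for CmNAC-NOR. CmNAC-NOR ran from -0.0169 to 0.10 over 6 environments, from -0.26 to 0.44 at North Carolina and from -1.25 to -0.80 at Uvalde 2018. It turned negative over 6 environments without F39 Georgia replicate 1 (-0.01) or TTDV North Carolina replicate 3 (-0.0169), and at North Carolina without F39 replicate 3 (-0.01) or TTDV replicate 3 (-0.26). CmACO1 ran from -2.16 to 1.17 at Uvalde 2018. Interaction p-values ran from 0.00792 to 0.0733 (CmACO1) and 0.0131 to 0.125 (CmNAC-NOR) over 6 environments, and from 0.046 to 0.224 and 0.0124 to 0.131 over 5. Adjusted p-values of the F test among F39 environments ran from 0.0162 to 0.149 (CmACO1) and 0.0362 to 0.315 (CmNAC-NOR). For the F test among TTDV environments they ran from 0.049 to 0.172 (CmACO1). Pairs ran from 0 to 3 and 0 to 2 in F39, and from 0 to 1 and 0 to 2 in TTDV, for CmACO1 and CmNAC-NOR in this order. Where TTDV at Georgia was left with 1 library, that library was assumed to vary like the other groups. No paired analysis was possible because the library names carry no replicate numbers shared between groups. CmACO1 in HD252 rests on 19 to 54 reads per library.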
